A study of Sus scrofa with 20 samples.

Results

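Heat shock proteins were followed in RNA-Seq counts of boar testis and liver. Of the 10 heat shock protein genes listed, 5 were matched to a reference ID of the count files, out of 21755 reference IDs in all. They were matched by symbol through the RefSeq gene table, a rule that uses no measured value, from a list drawn up with earlier results of these data known. They are HSP90AA1 (NM_213973.1), HSPH1 (NM_001097504.1), HSPB1 (NM_001007518.1), HSPA5 (XM_001927795.2) and HSP90B1 (NM_214103.1). HSP90AB1, HSPA1L, HSPA2, HSPA8 and HSPD1 had no matched ID and were not analysed here.

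The samples were whole testis and whole liver from Duroc x F2 cross boars, 116 days old, with Leicoma, German Landrace and Large White in the F2 parent line and no treatment in the labels. The groups were 5 boars labelled high androstenone and 5 labelled low androstenone, a testicular steroid that is stored in fat, with 1 library for each boar and tissue and no pooling. The 4 groups are named testis low, testis high, liver low and liver high, and boars of a group are named by the replicate number of the labels. The boars were chosen for extreme fat androstenone, so boars with middle levels are not represented.

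Heat shock proteins are molecular chaperones, which bind other proteins while they fold, are assembled or are damaged. HSP90 and HSP70 proteins work in cycles of ATP binding with helper proteins (co-chaperones), while small heat shock proteins hold unfolded proteins without ATP. HSP90 keeps steroid hormone receptors ready to bind their hormone, male germ cells are known for chaperones of their own, and the liver folds large amounts of secreted protein in the endoplasmic reticulum (ER).

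The 10 testis libraries held 6161397 to 15975386 counts each, and the 10 liver libraries held 5796973 to 26783002. Levels are counts per 1000000 (CPM), scaled by edgeR's TMM method over all 20 libraries. Before this scaling 3 counts amounted to at most 0.518 CPM, and the TMM factors of the liver libraries, 0.515 to 0.876, raise that value. The lowest count of a described heat shock protein in any library was 38, for HSPB1 in testis, so all 5 were measured in every library. The share of reads mapped was 42.2% to 49.4% in testis and 39.8% to 59.3% in liver. Liver high replicate 3 stood apart as the library with both the most counts and the highest mapped share, and results that rest on it are given with and without it.

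Cell type markers matched the tissue labels. The 5 hepatocyte markers found of 9 summed to between 90194 and 265689 CPM in liver and between 33.1 and 120 CPM in testis. The 6 germ cell markers found of 14 summed to 1708 to 5220 CPM in testis and to 12.0 to 240 CPM in liver, where 2 of the 6 were at 0 in the whole liver high group. The 4 Leydig cell markers of 7 summed to between 692 and 3416 CPM in testis and to at most 23.9 CPM in liver. The 4 Sertoli cell markers of 8 summed to between 58.4 and 210 CPM in testis and to at most 11.4 CPM in liver. The 3 blood and leukocyte markers of 7 summed to 837 to 3930 CPM in liver and to 14.7 to 251 CPM in testis. In bulk tissue, fewer cells of a type and less RNA per cell cannot be told apart, and the part of cell composition in the tissue differences below was not tested.

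The first comparison asked how the heat shock proteins differ between testis and liver. HSP90AA1 and HSPH1 were higher in testis, HSPB1 and HSP90B1 were higher in liver, and HSPA5 did not pass the test. A gene was called where its fold was 1.5 or more and its adjusted p was under 0.05 in edgeR's quasi-likelihood test, with Benjamini-Hochberg adjustment over all IDs tested. By this rule 4 of the 5 were called, beside 75.7% of the 19065 IDs tested, so being called did not set the heat shock proteins apart from other genes. Of those IDs 43.5% were higher in testis and 32.2% were higher in liver, and the median log2 difference over all of them was 0.31. Each direction held 2 of the heat shock proteins.

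**Figure D1:**
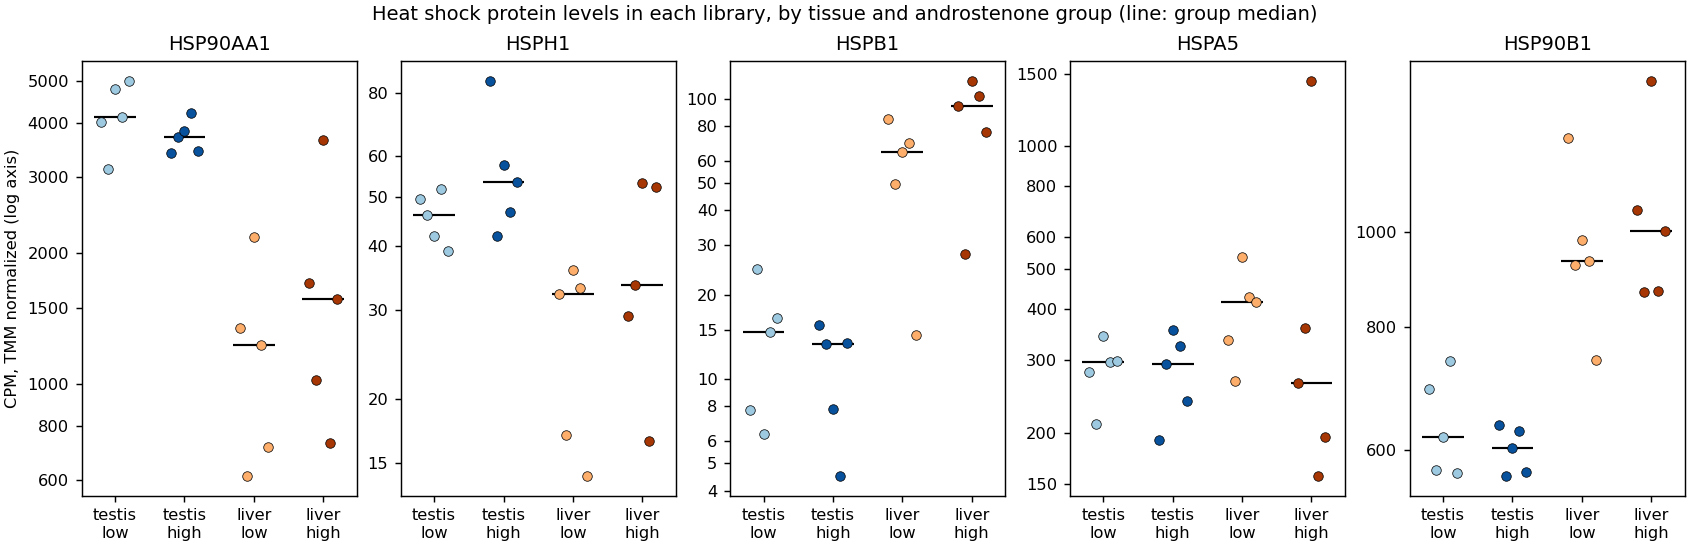
Level of each heat shock protein (y axis, CPM on a log axis with its own range in each panel) in the 4 groups (x axis), with 1 point per library and a line at the group median. HSP90AA1 lies higher in testis and HSPB1 and HSP90B1 higher in liver, while high and low androstenone boars overlap in every panel, and 1 liver high library reaches 1443 CPM of HSPA5.

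HSP90AA1 encodes the stress-inducible cytosolic form of HSP90, the chaperone of steroid receptors and many kinases. In testis its level was 4011, 3131, 4781, 4116 and 4997 CPM in the low boars and 3412, 3710.1, 3838, 4207 and 3442 CPM in the high boars. In liver it was 1346, 614, 2187, 1229 and 717 CPM in the low boars and 1709.9, 1022, 3648, 731 and 1574 CPM in the high boars. In CPM a single liver library, liver high replicate 3, reached into the testis range, and the other 9 were below every testis library. As a share of all counts, without TMM scaling, HSP90AA1 took 0.450% to 0.686% in testis and 0.0396% to 0.188% in liver, so the overlap came with the scaling. The level was 2.72-fold higher in testis, a log2 difference of 1.44 ± 0.28 (SE, edgeR, n = 10 against 10, adjusted p = 4.2e-05). The log2 difference was 1.92 in the low boars and 1.32 in the high boars, and between 1.35 and 1.67 with any 1 library left out. Whether reads of the related gene HSP90AB1 were counted under HSP90AA1 was not tested.

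HSPH1 encodes HSP105, the large partner that exchanges the nucleotide of HSP70. Its testis levels were 49.5, 46.0, 41.9, 51.7 and 39.2 CPM in the low boars and 84.4, 41.9, 57.6, 46.7 and 53.4 CPM in the high boars. Its liver levels were 32.2, 17.0, 35.9, 33.1 and 14.2 CPM in the low boars and 29.2, 33.5, 53.3, 16.6 and 52.2 CPM in the high boars. Testis was higher, but in CPM 2 liver libraries, liver high replicates 3 and 5, lay within the testis range. As a share of all counts HSPH1 took 0.00497% to 0.0115% in testis and 0.000814% to 0.00457% in liver, so this overlap came with the TMM scaling. The testis level was 1.63-fold that of liver, a log2 difference of 0.70 ± 0.21 (SE, edgeR, n = 10 against 10, adjusted p = 0.00398).

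HSPB1 encodes HSP27, the small heat shock protein that also binds actin. It had the lowest counts of the described genes in testis, with 7.77, 24.8, 6.38, 14.7 and 16.5 CPM in the low boars and 15.6, 13.4, 7.85, 4.52 and 13.4 CPM in the high boars. In liver it was at 84.7, 49.7, 64.7, 69.6 and 14.4 CPM in the low boars and at 94.2, 27.9, 116, 102 and 75.9 CPM in the high boars. In CPM liver low replicate 5 fell within the testis range, and the other 9 liver libraries lay above every testis library. As a share of all counts HSPB1 took 0.000617% to 0.00356% in testis and 0.000827% to 0.00787% in liver. By that share liver low replicate 2 (0.00320%) and liver high replicate 2 (0.00199%) also lay within the testis range. The liver level was 5.53-fold that of testis (log2 difference of testis against liver -2.47 ± 0.32, SE, edgeR, n = 10 against 10, adjusted p = 1.17e-07).

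HSP90B1 encodes GRP94, the HSP90 of the ER lumen. Its testis levels were 692, 572, 618, 739.9 and 568 CPM in the low boars and 635, 565, 602, 627 and 569.8 CPM in the high boars. Its liver levels were 1248, 926, 982, 935 and 741 CPM in the low boars and 1054, 869, 1427, 872 and 1002 CPM in the high boars. In CPM the lowest liver library was just above the highest testis library, so the tissues did not overlap. This was also so for 42.8% of all IDs tested. As a share of all counts, without TMM scaling, HSP90B1 took 0.0720% to 0.104% in testis and 0.0426% to 0.0877% in liver. These ranges overlapped and the mean was higher in testis, so the liver excess that follows rests on the scaling. The liver level was 1.63-fold that of testis (log2 difference -0.70 ± 0.17, SE, edgeR, n = 10 against 10, adjusted p = 4.65e-04).

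HSPA5 encodes BiP, the HSP70 of the ER and partner of HSP90B1, and it is a classic target of the unfolded protein response. Its testis levels were 281, 210.3, 345, 298 and 299.6 CPM in the low boars and 192, 294, 356, 326 and 238 CPM in the high boars. Its liver levels were 337, 267, 535, 429 and 415 CPM in the low boars and 264, 359, 1443, 157 and 195 CPM in the high boars. All 10 testis libraries lay within the liver range, which ran from 157 to 1443 CPM with liver high replicate 3 at its upper end. As a share of all counts HSPA5 took 0.0262% to 0.0513% in testis and 0.0121% to 0.0743% in liver. The mean share was higher in testis, so the negative sign that follows came with the TMM scaling. The log2 difference of testis against liver was -0.63 ± 0.30 (SE, edgeR, n = 10 against 10, adjusted p = 0.0609), which did not pass. Without liver high replicate 3 it was -0.13 (edgeR, adjusted p = 0.527), and it passed with liver low replicate 2 or liver high replicate 1, 4 or 5 left out (edgeR, adjusted p between 0.0204 and 0.0478).

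Within a library, the counts of one heat shock protein over another showed the tissue difference without any scaling between libraries. The ratio of HSP90AA1 counts to HSP90B1 counts was between 5.37 and 8.80 in testis (median 6.21, n = 10) and between 0.663 and 2.56 in liver (median 1.25, n = 10). These ranges did not overlap, while those of HSPA5 to HSP90B1 did, at 0.302 to 0.591 in testis and 0.180 to 1.01 in liver. The ratio of HSPH1 to HSP90AA1 was 0.00784 to 0.0247 in testis and 0.0146 to 0.0332 in liver. Transcript lengths were not at hand, so these ratios compare tissues and not the levels of the genes with each other. Together the 5 genes took 0.691% ± 0.0787 of all counts in testis and 0.213% ± 0.0782 in liver (SD, n = 10 each).

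The tissues also differed in how much the heat shock proteins varied between boars. The SD over the mean across the 10 libraries of a tissue was 0.150 in testis and 0.615 in liver for HSP90AA1, 0.253 and 0.429 for HSPH1, and 0.193 and 0.841 for HSPA5. It was 0.0946 in testis and 0.198 in liver for HSP90B1, and 0.483 and 0.459 for HSPB1. Without liver high replicate 3 the liver values, chosen after seeing the data, were 0.425 for HSP90AA1, 0.409 for HSPH1, 0.367 for HSPA5, 0.147 for HSP90B1 and 0.454 for HSPB1. The spread was wider in liver for 4 of the 5 genes with and without that library and close to equal for HSPB1, a description without a test.

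Depth did not separate the tissues, since each had 5 libraries above 10000000 counts and 5 below. Among the deeper libraries the difference in mean log2(CPM + 0.5), testis less liver, was 1.68 for HSP90AA1, 0.91 for HSPH1, -2.16 for HSPB1, -0.61 for HSPA5 and -0.76 for HSP90B1. Among the shallower libraries it was 1.56, 0.64, -2.61, -0.12 and -0.61 in the same order. Each gene kept its direction in both sets. The HSPA5 difference among the deeper libraries was -0.17 without liver high replicate 3.

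Of the other chaperones, co-chaperones and regulators listed, 49 were matched. Beside 43.5% of all IDs tested that were higher in testis and 32.2% higher in liver, 22 of these 49 genes were higher in testis, 14 were higher in liver and 13 did not pass. Their median log2 difference was 0.47, beside 0.31 over all IDs tested. The counts were 24 and 12 without liver high replicate 3. The lists are described below by the roles of their members, and the counts of each list stand beside the same shares of all IDs.

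**Figure D2:**
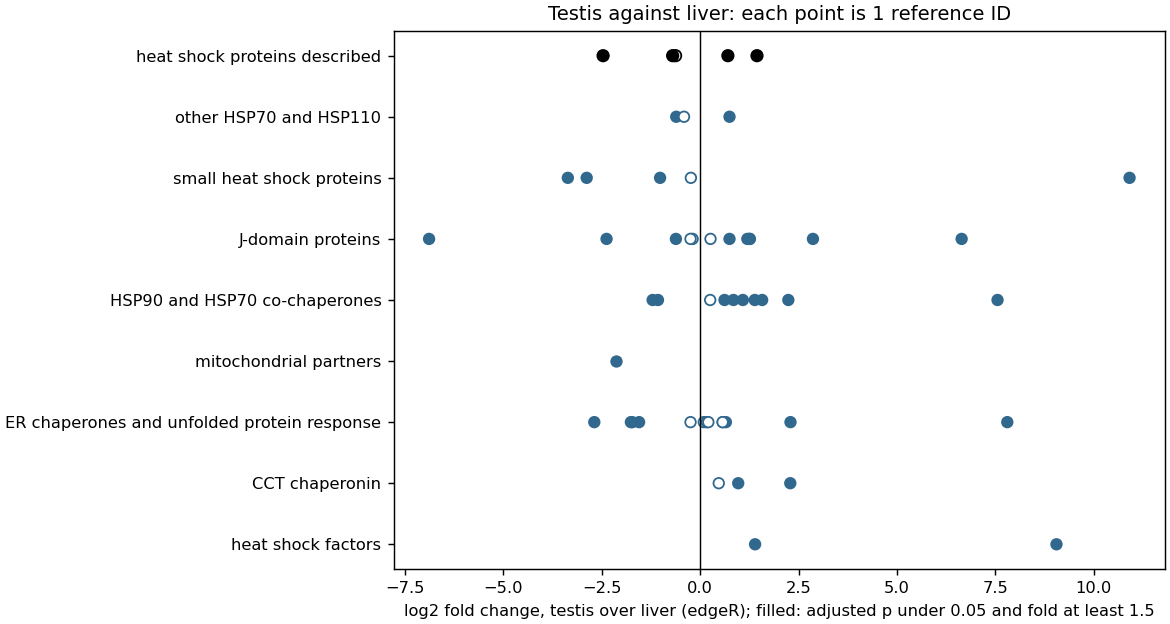
Log2 fold change of testis over liver from edgeR (x axis, above 0 is higher in testis) for the described heat shock proteins and 8 lists of related genes (y axis), with 1 point per reference ID, filled where the gene was called. The called heat shock proteins reach from -2.47 to 1.44, within the spread of the lists, and values above 6 belong to genes with under 5 CPM on average in liver.

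Of 3 other HSP70 and HSP110 genes, HYOU1, the large chaperone of the ER, was higher in testis (log2 difference 0.74 ± 0.22, SE, edgeR, adjusted p = 0.00341). HSP70.2, the entry for the stress-inducible cytosolic HSP70, was lower in testis (-0.61 ± 0.25, SE, edgeR, adjusted p = 0.0311). HSP70.2 has near-identical copies in the genome, so its counts are uncertain. HSPA13 did not reach the fold.

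Of 5 small heat shock proteins, 3 were higher in liver, as HSPB1 was. HSPB2, a muscle-rich family member, was at 2.77 ± 0.730 CPM in testis and 28.9 ± 11.8 CPM in liver, and HSPB8, a partner of BAG3 in autophagy, was at 5.05 ± 3.14 and 37.8 ± 15.3 CPM (SD, n = 10 each). HSPB9, known as a testis-expressed family member, was the 1 higher in testis, at 1196 ± 458 CPM against 0.673 ± 1.24 CPM in liver (SD, n = 10 each).

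J-domain proteins bring substrates to HSP70 and start its ATPase cycle. Of 12 such genes 6 were higher in testis and 3 in liver. DNAJA4 was at 52.7 ± 13.1 CPM in testis and 0.524 ± 0.366 CPM in liver, and DNAJC2, which acts at the ribosome, was 2.40-fold higher in testis. DNAJC12, a co-chaperone of the aromatic amino acid hydroxylases, was at 1.01 ± 0.378 CPM in testis and 117 ± 43.4 CPM in liver (SD, n = 10 each), and DNAJC19 of the inner mitochondrial membrane was 5.21-fold higher in liver.

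Of 10 co-chaperones of HSP90 and HSP70, 7 were higher in testis and 2 were higher in liver, beside 43.5% and 32.2% of all IDs tested. BAG6, a guide of newly made membrane proteins, was 4.72-fold higher in testis, and BAG2, an inhibitor of the ubiquitin ligase STUB1, was at 16.7 ± 3.08 CPM in testis and had 7 counts over all liver libraries. Those higher in liver were UNC45A, a myosin co-chaperone, at a log2 difference of -1.21 ± 0.25 and STUB1, which marks chaperone clients for degradation, at -1.07 ± 0.20 (SE, edgeR).

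In the ER, where HSPA5 and HSP90B1 act, 3 of 13 chaperones and unfolded protein response genes were higher in testis, 4 were higher in liver and 6 did not pass. CALR3, known as a testis calreticulin, was at 899 ± 198 CPM in testis and 4.00 ± 1.65 CPM in liver (SD, n = 10 each), and DDIT3, the stress factor CHOP, was 4.90-fold higher in testis. The transcription factors XBP1 and ATF4 of the same response were 6.46-fold and 3.39-fold higher in liver.

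HSPE1, the HSP10 lid of the mitochondrial chaperonin and the only member matched of 7 mitochondrial partners, was 4.39-fold higher in liver. Of 3 matched subunits of the cytosolic chaperonin CCT, CCT7 was 4.89-fold and CCT2 1.95-fold higher in testis, and CCT4 did not reach the fold. Both matched heat shock factor genes were higher in testis. HSF5 was at 95.4 ± 18.7 CPM in testis with 16 counts over all liver libraries, and HSBP1, a binding partner of heat shock factor 1, was 2.63-fold higher.

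The second comparison asked whether the heat shock proteins differ between boars with high and low androstenone. None of the 5 was called in either tissue by edgeR, which called 0.0% of the 18340 IDs tested in testis and 0.0% of the 15855 tested in liver. At an unadjusted p under 0.05 in edgeR the count was 0 of 5 in each tissue too, beside 1741 of 18340 IDs in testis and 465 of 15855 in liver. DESeq2 called 0 of 5 in each, beside 52 of all IDs in testis and 0 in liver. High and low boars overlapped for every heat shock protein in both tissues, as they did for all but 1.86% of IDs in testis and 0.542% in liver.

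**Figure D3:**
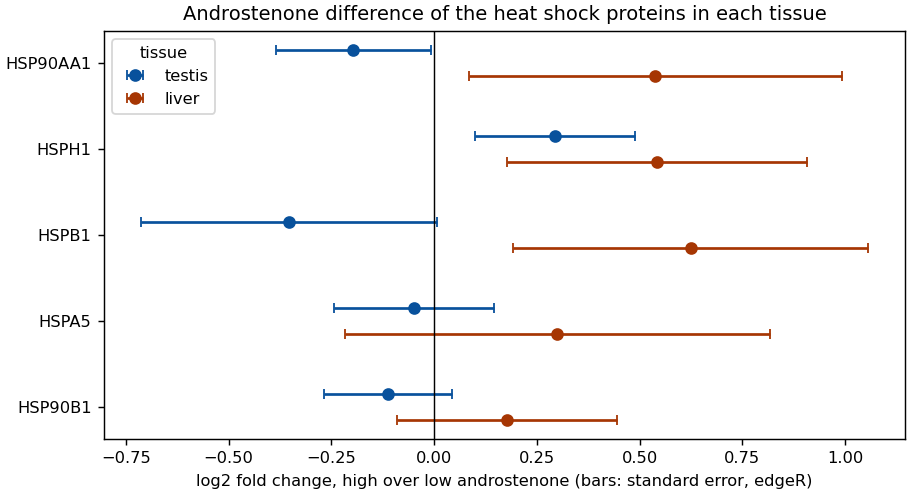
Log2 fold change of high over low androstenone boars (x axis, bars are the standard error from edgeR) for each heat shock protein (y axis) in testis and in liver, 5 boars in each group. The liver points lie above 0, from 0.18 to 0.62, with wide bars, the testis points lie from -0.35 to 0.29, and none passed the test.

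In testis HSP90AA1 averaged 3722 ± 325 CPM in the high boars and 4207 ± 734 CPM in the low boars (SD, n = 5 each), a log2 difference of -0.20 ± 0.19 (SE, edgeR). HSPH1 averaged 56.8 ± 16.6 CPM in the high boars and 45.7 ± 5.20 CPM in the low boars, a log2 difference of 0.29 ± 0.19. It was the heat shock protein with the lowest testis p, at 0.159 by exact two-sided permutation of 5 against 5 and 0.646 adjusted in edgeR. Its top level was 84.4 CPM in testis high replicate 1, and its log2 difference was between 0.12, without that library, and 0.40 with 1 library left out. The log2 differences of HSPB1, HSPA5 and HSP90B1 were -0.35 ± 0.36, -0.05 ± 0.19 and -0.11 ± 0.16, with exact p of 0.548, 0.841 and 0.357 (two-sided permutation tests, 5 against 5). The sign for HSPA5 turned with the mapped share in the model, to 0.03.

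In liver all 5 log2 differences were above 0, and none passed. They were 0.54 ± 0.45 for HSP90AA1, 0.54 ± 0.36 for HSPH1, 0.62 ± 0.43 for HSPB1, 0.30 ± 0.52 for HSPA5 and 0.18 ± 0.27 for HSP90B1 (SE, edgeR). The exact two-sided permutation p were 0.421, 0.317, 0.357, 0.778 and 0.540 in the same order, where 5 against 5 allows no p below 0.00794. The 95% interval of the liver log2 difference reached from -0.35 to 1.43 for HSP90AA1 and from -0.71 to 1.31 for HSPA5, so a level more than 2-fold higher in the high boars lies within both intervals. Without liver high replicate 3 the log2 difference was 0.11 for HSP90AA1 and -0.64 for HSPA5.

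The direction in liver differed between the deeper and the shallower libraries. Among the libraries above 10000000 counts, 2 high and 3 low, the difference in mean log2(CPM + 0.5) was 1.57 for HSP90AA1, 0.98 for HSPH1, 1.40 for HSPB1, 0.89 for HSPA5 and 0.37 for HSP90B1. Among the shallower libraries, 3 high and 2 low, it was -0.63, -0.16, -0.16, -1.11 and -0.07 in the same order. All 5 were above 0 in the deeper libraries and below 0 in the shallower ones. Without liver high replicate 3, which leaves 1 deeper high library, the deeper difference was 1.02 for HSP90AA1, 0.55 for HSPH1, 1.25 for HSPB1 and 0.15 for HSP90B1, and it turned to -0.34 for HSPA5. In testis the deeper and the shallower libraries differed in sign for HSP90AA1 (-0.38 and 0.11), HSPB1 (0.31 and -0.79) and HSPA5 (-0.40 and 0.31). HSPH1 kept its sign in testis, at 0.43 and 0.13, as did HSP90B1, at -0.09 and -0.07.

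Whether the androstenone difference itself differed between testis and liver was tested as an interaction over all 20 libraries. None of the 5 heat shock proteins passed at an adjusted p under 0.05 in edgeR, where 0.0% of the 19065 IDs tested passed. At an unadjusted p under 0.05 in edgeR the count was 0 of 5, beside 890 of all IDs. DESeq2 called 0 of 5, beside 2 of all IDs. The log2 values, testis less liver, were -0.69 ± 0.54 for HSP90AA1, -0.17 ± 0.42 for HSPH1, -0.90 ± 0.60 for HSPB1, -0.31 ± 0.60 for HSPA5 and -0.20 ± 0.33 for HSP90B1 (SE).

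The other chaperone genes were not called between androstenone groups either. Of 48 tested in testis edgeR and DESeq2 called 0, and 4 had an unadjusted p under 0.05 in edgeR, beside 1741 of 18340 IDs. Of 47 chaperone genes tested in liver both tools called 0, and 1 had an unadjusted p under 0.05 in edgeR, beside 465 of 15855 IDs. The median log2 difference of these chaperone genes was -0.07 in testis, beside -0.02 over all IDs, and 0.22 in liver, beside 0.01 over all IDs. The liver median was 0.10 without liver high replicate 3.

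The third comparison asked whether heat shock protein levels go with the share of reads mapped to the reference, which varied more in liver than in testis. The share was the total count of a library over its total number of reads, and the slope was fitted in edgeR with the androstenone group kept in the model. In liver HSPA5 rose with the mapped share, and the other 4 did not pass. This 1 of 5 stands beside 28.1% of the 15855 IDs tested that passed in liver at an adjusted p under 0.05, of which 14.6% rose and 13.5% fell.

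**Figure D4:**
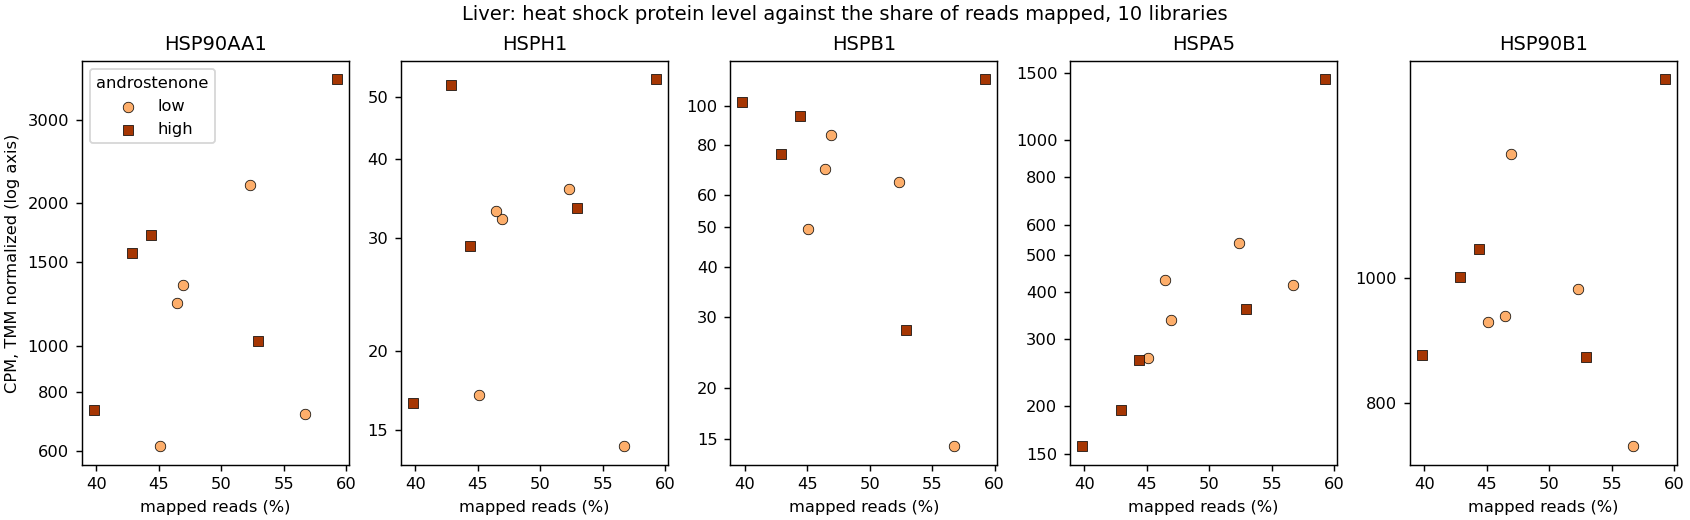
Level of each heat shock protein in liver (y axis, CPM on a log axis with its own range in each panel) against the share of reads mapped (x axis, percent), with 1 point per library and the androstenone groups marked. HSPA5 runs from 157 CPM at 39.8% to 1443 CPM at 59.3%, while the other panels have no slope that passed the test.

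The liver libraries had mapped shares of 46.9%, 45.1%, 52.3%, 46.4% and 56.7% in the low boars and 44.4%, 52.9%, 59.3%, 39.8% and 42.9% in the high boars. HSPA5 was lowest, at 157 CPM, in liver high replicate 4 with the lowest share, and highest, at 1443 CPM, in liver high replicate 3 with the highest share. Liver high replicate 3 and liver low replicate 5, with the highest mapped shares, also had the lowest TMM factors, 0.515 and 0.575, which raise CPM. As a percentage of counts HSPA5 was 0.0228, 0.0172, 0.0425, 0.0366 and 0.0239 in the low boars, in the order of the shares above. In the high boars it was 0.0213, 0.0255, 0.0743, 0.0121 and 0.0171. It did not rise steadily, since 0.0239 at 56.7% mapped lay below 0.0425 at 52.3%. The part of the scaling in the slope was not tested. The slope was 1.28 ± 0.22 on the log2 scale for 10 percentage points, which is 2.43-fold (SE, edgeR, n = 10, adjusted p = 0.00117). Without liver high replicate 3 the slope was 0.0695 for 1 point (edgeR, adjusted p = 0.0894) and no longer passed, and it passed with any of the other 9 libraries left out.

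Across the 10 liver libraries the correlation of log2(CPM + 0.5) of HSPA5 with the mapped share was r = 0.868 (permutation p = 4.5e-04, adjusted over 10 relations 0.0045) and rho = 0.867 (permutation p = 0.00206, adjusted 0.0206). It was r = 0.861 without the 2 libraries farthest from the median share. Within the deeper liver libraries the slope for 10 points was 1.24, and within the shallower ones 1.13, with 5 libraries in each and no test. The deeper set includes liver high replicate 3, at 1443 CPM, and its slope without that library was not computed. The others of the deeper set were at 264, 267, 337 and 415 CPM, at mapped shares of 44.4%, 45.1%, 46.9% and 56.7%. Of the markers tested in liver, 1 of 5 for hepatocytes and 1 of 4 for germ cells passed, and none of the 3 for Leydig cells, 2 for Sertoli cells and 3 for blood and leukocytes. The hepatocyte gene TF rose with the share, at 0.82 ± 0.19 for 10 points, and the germ cell gene SYCP3 fell, at -1.30 ± 0.21 (SE, edgeR, adjusted p of 0.00625 and 8.46e-04). The part of cell composition in the HSPA5 slope was not tested.

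The slopes of the other heat shock proteins in liver for 10 points were 0.64 ± 0.31 for HSP90AA1, 0.21 ± 0.29 for HSPH1, -0.31 ± 0.32 for HSPB1 and 0.08 ± 0.19 for HSP90B1 (SE, edgeR, adjusted p between 0.137 and 0.787). The slope of HSP90AA1 passed without liver low replicate 5 (edgeR, adjusted p = 0.0496). The slope of HSPB1 passed in the falling direction without liver high replicate 3, at -0.144 for 1 point (edgeR, adjusted p = 0.0240). HSP90B1, which works with HSPA5 in the ER lumen, thus had a slope near 0 in the same libraries, although the difference between both slopes was not tested.

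Of the 47 other chaperone genes tested in liver, 12 rose with the mapped share and 0 fell, beside 14.6% and 13.5% of all IDs tested, and DESeq2 gave 14 and 0. With liver high replicate 3 left out edgeR gave 6 and 0. PDIA6, a disulfide isomerase of the ER, rose by 1.29 ± 0.20 for 10 points, CCT7 by 1.24 ± 0.17, and HSPBP1, a nucleotide exchange factor of HSP70, by 1.15 ± 0.31 (SE, edgeR, adjusted p of 7.32e-04, 4.33e-04 and 0.0132). HSPBP1 is at 3.03 CPM on average in liver, and its counts are low.

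In testis, where the mapped share spanned a smaller range, 0 of the 5 heat shock proteins passed in edgeR, beside 0.0% of the 18340 IDs tested. The count at an unadjusted p under 0.05 in edgeR was 0 of 5, beside 1549 of all IDs, and DESeq2 called 0 of 5, beside 58 of all IDs. The testis slopes for 10 points were -0.29 ± 0.50 for HSP90AA1, -0.69 ± 0.47 for HSPH1, 0.21 ± 0.94 for HSPB1, 0.36 ± 0.51 for HSPA5 and -0.24 ± 0.40 for HSP90B1 (SE). Their errors are larger than in liver.

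The heat shock proteins were also compared with each other across the libraries of a tissue, as 20 pairs over both tissues. In liver HSP90AA1 and HSPH1, the cytosolic HSP90 and the large HSP70 partner, had the highest Pearson correlation of the 20 pairs, at r = 0.853 over 10 libraries (permutation p = 0.00161, adjusted 0.0322). By rank it was rho = 0.770 (permutation p = 0.0118, adjusted 0.116), which did not pass and was below the rho of HSP90AA1 with HSP90B1 in liver. It was r = 0.786 without the 2 libraries farthest from the median of HSP90AA1. There was a gap in HSPH1 between 3 libraries at up to 17.0 CPM and 7 libraries at 29.2 CPM and above, and within the 7 libraries it was r = 0.594 and rho = 0.429. The relation therefore rests partly on those 3 libraries, liver low replicates 2 and 5 and liver high replicate 4, which are also lowest in HSP90AA1.

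**Figure D5:**
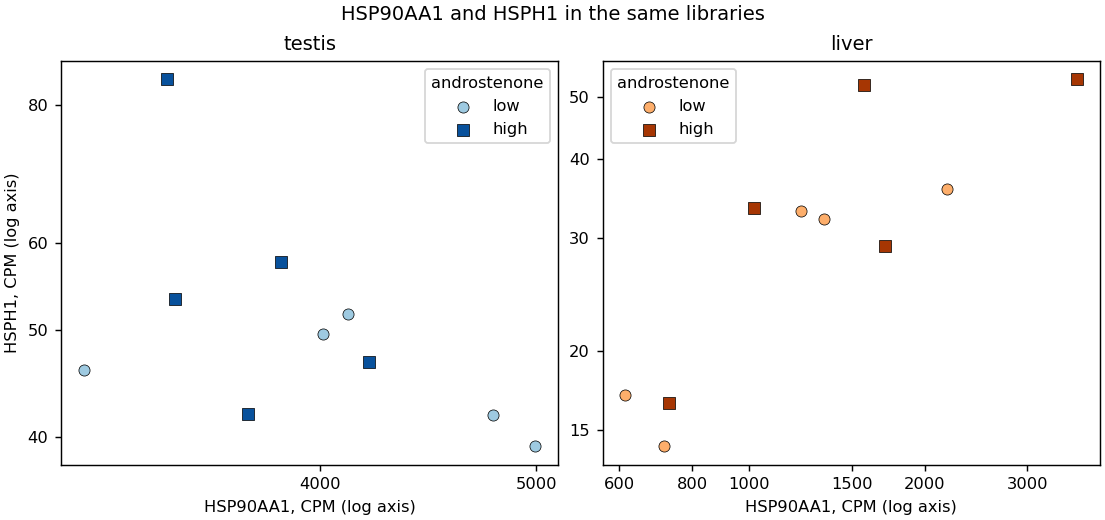
HSPH1 level (y axis, CPM on a log axis) against HSP90AA1 level (x axis, CPM on a log axis) in testis and in liver, with 1 point per library and the androstenone groups marked. In liver 3 libraries lie low in both genes and apart from the other 7, and in testis the points show no rise.

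In testis the same pair had r = -0.525 (permutation p = 0.119, adjusted 0.230, n = 10). The highest testis r was that of HSP90AA1 with HSPA5, at r = 0.733 (permutation p = 0.0170, adjusted 0.0840) and rho = 0.745 (permutation p = 0.0181, adjusted 0.116), which did not pass. In liver HSP90AA1 and HSP90B1 had r = 0.783 (permutation p = 0.00738, adjusted 0.0738) and rho = 0.806 (permutation p = 0.00661, adjusted 0.116). HSPA5 and HSP90B1, both of the ER lumen, had r = 0.129 in testis and r = 0.518 in liver (permutation p of 0.732 and 0.127, n = 10 each), and neither passed. The 5 libraries of a depth class or of an androstenone group are too few for a correlation within it.

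For the heat shock proteins that varied most in a tissue, the genes with the most alike pattern were read from Pearson r over its 10 libraries, among 3208 named IDs in testis and 3087 in liver. In liver HSPA5 was most like TUBB (r = 0.977), WARS (r = 0.975) and ECI2 (r = 0.962), a tubulin, a tRNA synthetase and an enzyme of fatty acid oxidation. HSPB1 in liver was most like MRPL38 (r = 0.932), GCC1 (r = 0.930) and EXOSC4 (r = 0.929), and HSP90AA1 was most like PUS1 (r = 0.904), MRM3 (r = 0.901) and MFSD2A (r = 0.900). In testis HSPB1 was most like IRF2BPL (r = 0.919), HSPH1 most like ING2 (r = 0.916) and HSPA5 most like SLC25A44 (r = 0.934). Depth and mapped share differ between these libraries and are common to all genes of a library, and the values are a description. By the same measure, but outside the rule for named genes and picked after their values were seen, HSP90B1 in liver was most like HYOU1 (r = 0.912), an ER chaperone, and HSPH1 was most like CHORDC1 (r = 0.919), an HSP90 co-chaperone.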

How the data were processed

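RNA was measured in 20 libraries (testis and liver of 10 boars, 5 in each androstenone group). Per the labels, reads were processed with CASAVA 1.7, BWA and SAMtools. By the study's methods, BWA aligned them to RefSeq mRNA and UniGene transcripts of Sscrofa 9.2, and the authors deposited raw read counts per reference ID, not normalized. How reads that fit several sequences were counted is not given in the sources used here. Each file has 21785 lines for 21755 IDs, and 10 repeated IDs were used once. Symbols came from a RefSeq gene table of a later assembly with versions dropped, which named 6654 IDs.

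Counts were tested with edgeR 4.0.16 in R 4.3.3 (TMM, IDs with at least 10 counts summed, quasi-likelihood test, Benjamini-Hochberg adjustment). Exact permutation tests and correlations (100000 resamples) used log2(CPM + 0.5) in Python 3.11.15 with scipy 1.17.1. DESeq2 1.42.0 and other settings were alternatives. The procedure was tested on simulated data. The mapped share was total counts over the total reads the study lists. The mapped percentage listed for liver high replicate 3 is the unmapped one by the study's own read numbers, so listed percentages were not used.

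The heat shock proteins and gene lists were chosen with earlier results of these data known. From each list the text names up to 2 called genes in each direction with the largest tissue difference and a mean of at least 5 CPM, up to 3 called genes in each direction for other comparisons, and the most alike genes for the 3 heat shock proteins with the largest SD in a tissue. Whether a replicate number marks 1 boar in both tissues was not settled. The correlation of deviations between same-numbered testis and liver samples ranged from -0.031 to 0.152 in low boars and from -0.038 to 0.421 in high boars. Its mean was 0.079 in low boars, against -0.020 for other numbers, and 0.187 in high boars, against -0.050. Between high and low livers, which are different boars, same-numbered samples ranged from -0.356 to 0.485. No replicates were alike within sampling noise (lowest chi-square per degree of freedom 11.6). The limit of 3 counts covers counting error only, and the 95% intervals come from edgeR's standard errors, which hold the spread between boars. The labels do not say which testis and liver libraries came from 1 boar, and p-values measure the spread between the boars of a group.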

Additional observations from a re-analysis of the deposited data

Results flagged for a closer look

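HSPA5 in liver high replicate 3 was at 1443 CPM, far above the other 4 boars of its group, which lay between 157 and 359 CPM. It was found in 1 of 20 sets of 5 values examined for a sample that stands apart, and chance gives about 1 in 20. The sets are the 5 genes in each of the 4 groups, so they share libraries and are not independent. The same library had the highest CPM of HSP90AA1, HSPH1, HSPB1 and HSP90B1 in liver, but also the lowest TMM factor of all libraries, 0.515, which raises its CPM. As a share of all counts it was highest in liver for HSPA5 and HSP90AA1, and not for HSPH1, HSPB1 or HSP90B1. It also had the most counts and the highest mapped share. The part of the scaling, depth and mapped share in its HSPA5 level was not tested.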

How the results depend on the processing

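The direction and call of the heat shock proteins were the same in 166 values under other settings (normalization, filter, tool, covariates, replicate block, IDs of a symbol summed), while 8 turned in direction and 1 lost its call. With the mapped share as a covariate 1 ID was called between androstenone groups in testis and the HSPA5 difference became 0.0281. DESeq2 called 52 IDs there, 2 for the interaction and 58 for the testis mapped share. Without the androstenone group the testis slope of HSP90AA1 was 0.00157 for 1 point.

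At most 2 of 5 samples correlated best with their own replicate number, so a block on that number was kept as an alternative. Between tissues 4 heat shock proteins were called with the block, as without it. With the replicate block 641 IDs and 0 heat shock proteins were called for the liver mapped share, and the slope of HSPA5 was 0.105 (edgeR, adjusted p = 0.0855), and 2 of the other chaperone genes rose and 0 fell. Under the block the liver androstenone difference of HSPA5 was -0.15 and its interaction 0.18, the testis slopes of HSPH1 and HSP90B1 were 0.00559 and 0.0420, and their liver slopes were -0.0156 and -0.00702.

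With each library left out in turn, the IDs called ranged from 0 to 2 between testis androstenone groups, from 0 to 1 for the testis mapped share, and from 2627 to 4757 for the liver mapped share, where 2627 was without liver high replicate 3 and 2845 without liver high replicate 4. Heat shock proteins called ranged from 4 to 5 between tissues and from 1 to 2 for the liver mapped share. The HSPA5 difference ranged from -0.142 to 0.0726 in testis, from -0.64 to 0.52 in liver and from -0.54 to 0.67 for the interaction. Testis slopes for 1 point ranged from -0.103 to 0.0195 for HSPH1, from -0.0411 to 0.183 for HSPB1 and from -0.0196 to 0.0840 for HSPA5, and liver slopes from -0.00366 to 0.0480 for HSPH1 and from -0.0192 to 0.0189 for HSP90B1. The cause of these changes was not tested. Depth limits genes with few counts, and at 3 counts a level of up to 0.518 CPM before TMM scaling could not be told from 0.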
